A study of Mus musculus with 38 samples.

Results

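The copies described here are the fragmentary members of the MMERVK10C endogenous retrovirus family in the mouse genome. They are the rows of a table of individual transposable elements (TEs) that carry the RepeatMasker name MMERVK10C-int, for the internal sequence, or a name that starts with RLTR10, for the long terminal repeats (LTRs) and for the related internal sequence RLTR10-int, and that do not overlap any of 309 predicted full-length MMERVK10C elements. Of 14112 rows with such names, 1418 overlapped a full-length element and were left out, and 12694 remained, out of 3494634 individual TEs in the table. Names and positions alone picked the copies, and no measured value entered the rule. The family itself was not picked blind, as the study had already reported MMERVK10C as upregulated in its progenitor cultures and knockout cortex.

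MMERVK10C belongs to the ERVK class of endogenous retroviruses. An intact provirus carries an LTR at each end, with promoter and polyadenylation signals in the LTR, and between the LTRs an internal region that encodes the gag, pro, pol and env proteins. Recombination between the LTRs removes the internal region and leaves a solo LTR, and later mutations and insertions break older proviruses into pieces that RepeatMasker lists as separate copies. TRIM28 is a co-repressor that KRAB zinc finger proteins bring to such sequences, where the partner methyltransferase SETDB1 deposits H3K9me3, a histone mark of silenced chromatin.

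Knockout was compared with control in 32 bulk RNA-seq libraries from 5 experiments. Neural progenitor cell (NPC) cultures came from the forebrain of Rosa26-Cas9 knock-in embryos at embryonic day 13.5 and were sorted for a nuclear RFP reporter 10 days after transduction with lentiviral guides against Trim28 exon 3, 4 or 13 (6 Trim28-KO libraries, 2 per guide) or against lacZ (2 control libraries). Sorted nuclei came from the forebrain of adult mice 2 months after AAV injection. Cas9-GFP knock-in mice, in which Cas9 is made in all cells, received guides with an H2B-RFP reporter driven by Synapsin, a neuronal promoter. Stop-Cas9-GFP knock-in mice received guides with a Cre-inducible H2B-RFP reporter and a second vector with Synapsin-driven Cre, which switches Cas9 on in neurons, and each of these experiments has 4 Trim28-KO libraries (exon 3, exon 4, exon 13 and a mix of the guides) and 1 lacZ control. Adult Trim28-flox mice received AAV-Cre and were analysed after the same time, with 4 libraries labelled KO and 4 labelled control. Cortex was taken at 3 months of age from Emx1-Cre +/- mice, in which Cre acts in the forebrain progenitors that give rise to cortical excitatory neurons and astrocytes, with both Trim28 alleles excised (Trim28-fl +/+, 3 Trim28-KO libraries) or 1 allele excised (Trim28-fl +/-, 3 control libraries). By their labels the cortical controls carry Cre and lack 1 allele. The study's text calls controls Cre-negative in 1 place, and the labels were used here. The bulk tissue includes cells that never expressed Cre. In bulk samples, fewer cells of a type and less RNA per cell cannot be told apart.

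The libraries held 8790346 to 25345083 counts on genes. Trim28 itself was read first, in CPM (counts scaled to the gene counts of the library, with TMM factors). It measured 36.8 to 73.5 CPM in the NPC knockouts against 157 and 204 CPM in the controls, and 6.07 to 8.86 CPM in the cortical knockouts against 19.0 to 21.4 CPM. The Cas9-GFP knockouts held 93.7 to 105 CPM against 143 CPM, and the Stop-Cas9-GFP knockouts 88.4 to 127 CPM against 105 CPM, so that the control lay within the knockout range in the latter. These values are RNA. For both kinds of mice the study reported efficient editing of Trim28 and loss of its protein in transduced neurons. In the flox experiment Trim28 went against the labels, with 130 to 146 CPM in the libraries labelled KO and 25.6 to 31.6 CPM in the libraries labelled control, and both are named by their labels throughout. Progenitor markers summed to 3418 to 7050 CPM in NPC knockouts and 5479 to 6696 CPM in NPC controls. Astrocyte markers summed to 1373 to 2347 CPM and 1481 to 2199 CPM in these groups, and neuron markers to 1082 to 1763 CPM and 1216 to 1416 CPM. The 4 microglia markers summed to 2.41 to 6.09 CPM in NPC knockouts and 4.13 CPM in both controls, with C1qa and Cx3cr1 at 0 in every NPC library. Over the nuclei libraries, striatal markers summed to 1108 to 1661 CPM, inhibitory markers to 553 to 910 CPM and excitatory markers to 5.01 to 251 CPM. In the cortex the striatal sum was 32.3 to 44.9 CPM and the excitatory sum 559 to 673 CPM. The study injected the Cas9 mice in the striatum. Nuclei and cortex thus differ in cell types as well as preparation. In the cortex 4 marker sums did not overlap between groups, while the neuron, excitatory, striatal, astrocyte and microglia sums did. Of all individually tested TEs in the cortex, 7.48% had every knockout above every control and 5.7% every knockout below. The share among all genes was not counted. The oligodendrocyte sum was 2056 to 2207 CPM in knockouts and 2551 to 2754 CPM in controls, the inhibitory neuron sum 520 to 577 CPM against 587 to 647 CPM, the endothelial sum 21.9 to 34.2 CPM against 34.4 to 36.3 CPM, and the progenitor sum 116 to 145 CPM against 91.4 to 98.7 CPM, with Fabp7 called up, and the part of cell composition in the cortical results was not tested. Of 27 repressor genes fixed as a list, which includes Setdb1 and the zinc finger genes Zfp932 and Gm15446, Trim28 was the only one called in any experiment, including the 27 tested in NPCs and the 24 tested in the cortex. Gm15446 was uneven in the flox experiment without being called. It measured 0.166 to 98.8 CPM in the libraries labelled KO and 153 to 216 CPM in those labelled control (log2 fold change -1.98 ± 1.13 SE), without overlap.

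Of the 7 LTR copies that rose in a knockout, 6 are shown for the promoter or polyadenylation motif letters that they hold. Each stretch is read 5′ to 3′ on the strand of the copy from GRCm38 (RefSeq), runs from 30 bases before the first TATAAA, the core of a promoter element, or, where there is none, before the AATAAA (the polyadenylation signal), to 30 bases after the AATAAA, and has these motifs in capitals. They are chr4:88764238-88764363 and chr3:108242012-108242077 on the minus strand and chr12:21565462-21565587 on the plus strand for the RLTR10C copies, chr11:4051780-4052000 on the plus strand and chr6:39324671-39324911 on the minus strand for the RLTR10 copies, and chr3:88369625-88369690 on the minus strand for the RLTR10D copy.
RLTR10C_dup431: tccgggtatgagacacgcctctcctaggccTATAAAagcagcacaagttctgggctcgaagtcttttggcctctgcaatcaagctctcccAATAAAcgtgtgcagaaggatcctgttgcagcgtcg
RLTR10C_dup1237: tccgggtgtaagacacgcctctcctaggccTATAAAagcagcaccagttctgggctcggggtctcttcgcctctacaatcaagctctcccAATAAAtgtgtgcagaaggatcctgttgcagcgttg
RLTR10C_dup332: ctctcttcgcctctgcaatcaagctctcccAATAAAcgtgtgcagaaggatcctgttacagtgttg
RLTR10_dup1936: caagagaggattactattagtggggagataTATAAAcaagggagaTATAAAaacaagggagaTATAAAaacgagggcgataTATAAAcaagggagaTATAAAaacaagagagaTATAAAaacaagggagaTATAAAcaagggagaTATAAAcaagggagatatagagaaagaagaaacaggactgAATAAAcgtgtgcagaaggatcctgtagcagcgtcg
RLTR10_dup916: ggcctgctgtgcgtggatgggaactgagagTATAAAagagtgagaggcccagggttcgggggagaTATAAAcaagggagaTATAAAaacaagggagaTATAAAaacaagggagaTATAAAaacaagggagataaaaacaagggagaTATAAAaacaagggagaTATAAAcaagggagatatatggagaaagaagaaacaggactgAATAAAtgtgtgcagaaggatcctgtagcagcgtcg
RLTR10D_dup66: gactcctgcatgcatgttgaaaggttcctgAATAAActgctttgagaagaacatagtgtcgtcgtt

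RLTR10C_dup332 and RLTR10D_dup66 hold AATAAA and no TATAAA, and the other RLTR10C stretches place 1 TATAAA upstream of 1 AATAAA. The RLTR10 stretches carry a tandem run of short repeats, most of which contain TATAAA. RLTR10_dup1936 holds 8 TATAAA in all and RLTR10_dup916 holds 7, the first of which lies alone upstream of the run. Across all members searched, TATAAA was found in sense in 95.8% of RLTR10 copies, 41.6% of RLTR10C copies and 4.29% of RLTR10D copies, and 93.8% of RLTR10 copies held more than 1 of them, with a median of 4 and a maximum of 14. AATAAA was found in sense in 88.8% of RLTR10 copies, 90.7% of RLTR10C copies and 88.6% of RLTR10D copies. Both strands were searched, the motifs can share their end bases, and in antisense TATAAA stood in 0.0344% of RLTR10 copies and 0.467% of RLTR10C copies. Of 7865 RLTR10 LTR members of all names, 42.95% held both motifs in sense.

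By name the members were 2189 MMERVK10C-int copies, 2600 RLTR10-int copies and LTR copies of 9 names, of which RLTR10 (2930 copies) and RLTR10C (1503 copies) were the most numerous. The fragments were short, with a median of 380 bp and a range of 12 to 7557 bp. The internal MMERVK10C-int members had a median of 267 bp, a GC content of 43.3% and 1.48 CpG per 100 bp, and the RLTR10 copies 399 bp, 50.1% GC and 3.07 CpG per 100 bp. Relative to MMERVK10C-int copies and full-length elements, 10638 lay more than 100 bp from any other, 2027 lay within 100 bp of a fragment MMERVK10C-int copy and 29 within 100 bp of a full-length element. The 10638 include LTR and RLTR10-int pieces that adjoin each other. When same-strand members of any name within 500 bp were joined, 4512 LTR pieces and 228 internal pieces had no other member beside them. In the gene annotation 9831 members (77.5%) were intergenic, 2500 lay in introns and 363 overlapped exons.

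Most members gave no unique signal in any library. There were no counts at all on 8855 members (69.8%) over the 32 libraries, 3839 had at least 1 count, and 352 members (2.77%) passed the filter on low counts in at least 1 experiment, 8 of them in all 5. A copy that passes the filter only through the group in which it is high had to differ, so the shares below describe the tested copies and not the family. Summed over all members, the NPC knockouts held 141 to 212 CPM (median 153) against 84.1 and 92.4 CPM in the controls. The cortical knockouts held 203, 236 and 268 CPM against 77.4 to 81.6 CPM. The knockout and control libraries did not overlap in either experiment. The sums in the nuclei were higher in all groups and closer together. They were 340 to 423 CPM against 331 CPM in Cas9-GFP mice, 402 to 515 CPM against 385 CPM in Stop-Cas9-GFP mice, and 250 to 303 CPM in the flox libraries labelled KO against 254 to 346 CPM in those labelled control. Every Cas9-GFP and Stop-Cas9-GFP knockout thus lay above its lone control, and the flox groups overlapped. Among all individually tested TEs, every knockout lay above that control in 22% and 12.9%.

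**Figure D1:**
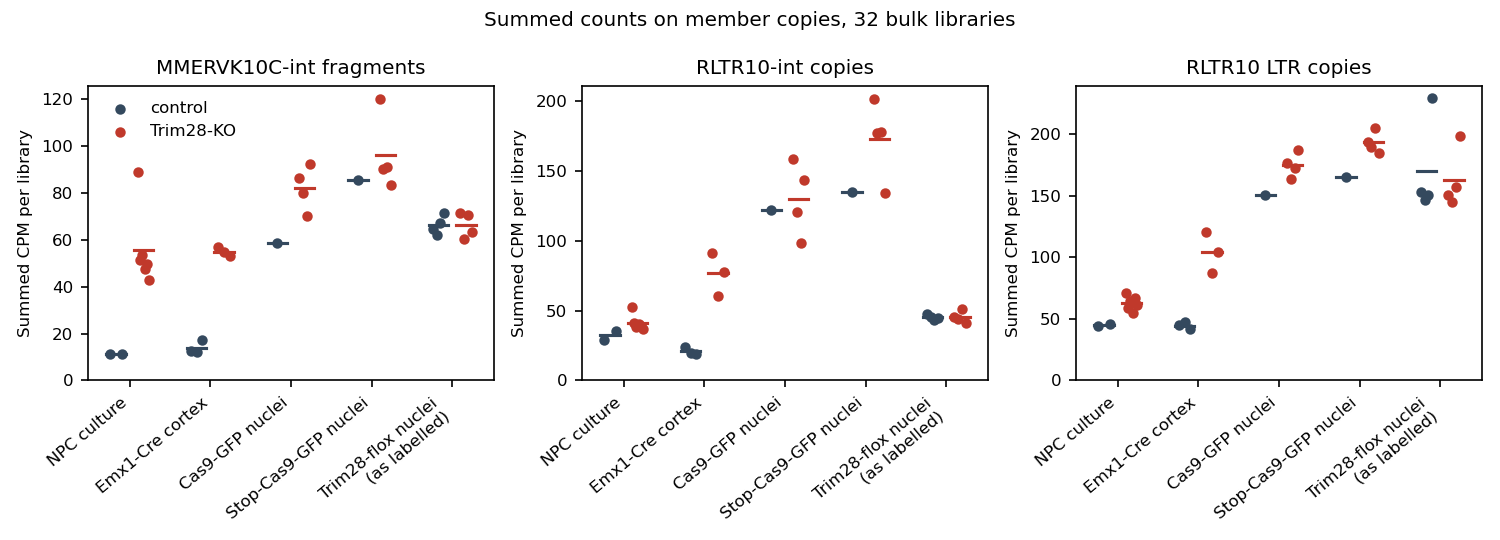
Summed CPM of the member copies per library (vertical axis, linear from 0) for MMERVK10C-int fragments, RLTR10-int copies and RLTR10 LTR copies in the 5 experiments, with 1 point per library and a line at the mean of each group. All 3 sums lie above the controls in every NPC and cortical knockout library, and the flox groups overlap. The LTR sums also lie above the lone control in every Cas9-GFP and Stop-Cas9-GFP knockout, and the MMERVK10C-int sums in every Cas9-GFP knockout.

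The classes of members moved by different amounts. MMERVK10C-int fragments summed to 42.9 to 88.9 CPM in the NPC knockouts (median 50.5) against 11.1 and 11.3 CPM in the controls, and to 53.2 to 56.9 CPM in the cortical knockouts against 12.3 to 17.3 CPM. The NPC maximum of 88.9 CPM came from KO-845, and the next knockout measured 53.5 CPM. RLTR10-int copies summed to 36.9 to 52.2 CPM (median 39.6) in the NPC knockouts against 29.0 and 35.5 CPM, which nearly touch, and to 60.8 to 91.1 CPM in the cortical knockouts against 18.6 to 24.2 CPM. In lacZ-867, KO-870, KO-873 and KO-876 the copy RLTR10-int_dup962 alone took 16.2, 8.10, 10.5 and 7.94% of all member counts. Another member was the most abundant in each other NPC library. The LTR copies summed to 54.9 to 70.7 CPM (median 63.1) against 43.9 and 45.5 CPM in NPCs and to 87.3 to 120 CPM against 41.5 to 47.5 CPM in the cortex. Fragments took 23.9 to 39.8% of the unique MMERVK10C-int counts in the NPC knockouts and 35.4 and 36.9% in the NPC controls, the rest lying on copies that overlap full-length elements. In the cortex the share was 38.4 to 39.8% in knockouts and 45.4 to 51.3% in controls, without overlap.

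In NPCs 12 of 60 tested members rose and none fell, at an adjusted p below 0.05 and a log2 fold change past 0.5 in edgeR's quasi-likelihood test over 35091 TEs. Of all tested TEs 0.55% rose under the same rule and none fell (0%). The median log2 fold change was 0.47 over the members and 0.20 over all tested TEs, 23 members had an unadjusted p below 0.05, all of them higher in the knockouts, and in 23 members every knockout library lay above both controls, against 5.63% of all tested TEs, and below both in 0, against 1.09%. The internal sequence carried most of the calls, with 9 of 18 tested MMERVK10C-int fragments, 2 of 15 RLTR10-int copies and 1 of 27 LTR copies. Of the copies that overlap full-length elements and are not members, 11 of 27 tested were upregulated. The member count rests on the 2 controls, as 4 of 87 and 7 of 90 tested members were called without lacZ-842 and without lacZ-867.

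The 12 NPC copies lay in 6 loci when copies within 10 kb were joined, and pieces of 1 insertion are not independent of each other. The largest group was on chromosome 13, 6975 bp and more from Gmnn, which encodes the replication licensing inhibitor geminin, where 5 adjoining pieces (chr13:24768899-24771668, minus strand) all rose. The piece with the most counts, MMERVK10C-int_dup2561, measured 6.14 to 12.5 CPM (median 7.82) in the knockouts against 0.215 and 0.298 CPM in the controls (log2 fold change 4.98 ± 0.47 SE, adjusted p = 0.000285, n = 6 and 2). Every knockout library lay far above both controls. The next piece, MMERVK10C-int_dup2562, measured 3.50 to 4.70 CPM (median 3.84) against 0.107 and 0.249 CPM (log2 fold change 4.42 ± 0.439 SE, adjusted p = 0.000372). MMERVK10C-int_dup2563 (log2 fold change 3.99), MMERVK10C-int_dup2564 and MMERVK10C-int_dup2565 (log2 fold change 4.37) rose with them. Without lacZ-842 the values were 3.39 for MMERVK10C-int_dup2563 and 3.51 for MMERVK10C-int_dup2565 and neither was called, and without lacZ-867 they were 5.14 and 7.34. MMERVK10C-int_dup2562 had 5.13 without lacZ-867. MMERVK10C-int_dup2564 is only 45 bp long and had no count in the controls, which makes it at least 4.23-fold higher when 3 counts per control library are taken as the floor.

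On chromosome 4 a 7340 bp insertion (chr4:88764210-88771549, minus strand), inside an intron of the pseudogene Gm13284 and opposite to it, held 3 called copies. Its internal piece MMERVK10C-int_dup781 measured 2.11 to 9.61 CPM (median 4.27) against 0.0537 and 0.0497 CPM. The control values are 1 count in each library, so the 97.9-fold ratio of the summed counts has a 95% counting interval of 27.0 to 811 (log2 fold change 6.36 ± 0.778 SE, adjusted p = 0.00124). MMERVK10C-int_dup782, next to it, measured 2.30 to 8.92 CPM (median 4.90) against 0.376 and 0.298 CPM (log2 fold change 3.83 ± 0.61 SE, adjusted p = 0.0079). The knockouts were above the controls in both pieces. The LTR RLTR10C_dup431, the only LTR called in NPCs, measured 2.01 to 3.79 CPM (median 2.99) against 0 and 0.0497 CPM (log2 fold change 6.44 ± 0.689 SE, adjusted p = 0.000511), with 287 counts over the knockouts and 1 over the controls, a ratio of 113 with a counting interval of 20.2 to 4491. Its log2 fold change was 5.65 without lacZ-842 and 8.58 without lacZ-867.

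The remaining NPC copies were in 4 places. RLTR10-int_dup2468 (chr18:3699485-3701458, minus strand, no gene within 10 kb) measured 0.862 to 5.61 CPM (median 1.72) and had no count in the controls, which makes it at least 13.9-fold higher at the same floor (adjusted p = 0.0161). RLTR10-int_dup930 (chr7:34092340-34094284, plus strand), 1146 bp from Scgb1b30, a secretoglobin gene, measured 0.977 to 9.13 CPM (median 2.15) against 0.0537 and 0 CPM, the former from 1 count (log2 fold change 6.56 ± 1.25 SE, adjusted p = 0.0252). Without lacZ-842 or without lacZ-867 RLTR10-int_dup930 was not called, with log2 fold changes of 8.72 and 5.67. In both of these RLTR10-int copies the highest value came from the library KO-845 and the other 5 knockouts stayed at or below 2.47 CPM. MMERVK10C-int_dup2250 (chr11:6450113-6451060, plus strand) measured 0.320 to 0.745 CPM (median 0.632) against 0 CPM in both controls, at least 3.85-fold higher, and lost its call without any 1 of 5 libraries. MMERVK10C-int_dup941 (chr5:33947757-33951038, minus strand) overlaps an exon of the lincRNA Gm42851 on the same strand, and measured 2.02 to 2.78 CPM (median 2.61) against 0.537 and 0.497 CPM (log2 fold change 2.27 ± 0.359 SE, adjusted p = 0.00767). Gm42851 itself measured 1.15 to 2.35 CPM against 0.215 and 0.547 CPM (log2 fold change 2.27, adjusted p = 0.167), and reads in the shared exon can count for both.

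In the Emx1-Cre cortex 22 of 46 tested members rose and none fell. The rate over all 14556 tested TEs was 2.67% up and 0.254% down. The median log2 fold change was 0.87 over the members and 0.01 over all tested TEs, 24 members had an unadjusted p below 0.05, all of them higher in the knockouts, and in 24 members every knockout lay above every control, against 7.48% of all tested TEs, and in 1 member every knockout lay below every control, against 5.7%. Calls were spread over the classes, with 10 of 13 MMERVK10C-int fragments, 6 of 12 RLTR10-int copies and 6 of 21 LTR copies. Of non-member copies overlapping a full-length element 17 of 23 rose. The 22 copies lay in 14 loci.

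The cortical copies with the highest values were not the NPC ones. The internal fragment MMERVK10C-int_dup301 (chr2:85477672-85480185, plus strand, 3408 bp from 4833423E24Rik) measured 13.1, 15.0 and 9.02 CPM in the knockouts against 0, 0 and 0.0444 CPM in the controls. That is 635 counts against 1, a ratio of 877 with a counting interval of 157 to 34692 (log2 fold change 9.22 ± 0.413 SE, adjusted p = 8.11e-17, n = 3 and 3), and 10.9 is the log2 fold change of MMERVK10C-int_dup301 without ctrl-77, which holds that count. No NPC library had a count on it, in knockouts or controls. RLTR10-int_dup1728 and its 3′ LTR RLTR10_dup1936 (chr11:4049560-4052026, plus strand) lie 1535 and 3481 bp from Sec14l4, which encodes a lipid-binding protein of the Sec14 family. The internal part measured 35.0, 9.14 and 22.9 CPM against 0.0362, 0.0543 and 0.0444 CPM, which is 1 count in each control (log2 fold change 8.80 ± 0.5 SE, adjusted p = 2.17e-14). The LTR, printed above, measured 45.5, 16.5 and 34.7 CPM against 0.145, 0 and 0 CPM (log2 fold change 8.96 ± 0.441 SE, adjusted p = 7.12e-16), where all 4 control counts lay in ctrl-64 and the log2 fold change was 12.19 without that library. With 32.2 ± 14.7 CPM (SD, n = 3) RLTR10_dup1936 was the called member with the highest mean in the knockout cortex. KO-73 was the lowest of the 3 knockouts in both, and the groups did not overlap.

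An intron of Plac8l1 held 3 more, on the strand opposite to the gene (chr18:42183460-42186157, plus strand). RLTR10-int_dup2522 measured 14.1, 10.5 and 11.3 CPM against 0.109, 0 and 0.0888 CPM (log2 fold change 7.25 ± 0.325 SE, adjusted p = 8.11e-17). RLTR10-int_dup2524 had a log2 fold change of 6.94 and RLTR10_dup2816 of 6.72, with knockouts at 6.33 CPM or more and controls at 0.133 CPM or less, and RLTR10-int_dup2524 had 7.60 without ctrl-77. Plac8l1 was not tested, as it measured at most 0.0791 CPM in these libraries. A group on chromosome 3 (chr3:108241985-108245664, minus strand), opposite to the lincRNA Gm40123 and 1737 bp from it, was already expressed in controls. MMERVK10C-int_dup548 measured 6.30, 5.27 and 5.54 CPM against 1.12, 1.09 and 1.07 CPM (log2 fold change 2.38 ± 0.211 SE, adjusted p = 6.42e-10), MMERVK10C-int_dup549 had a log2 fold change of 1.88, and the LTR RLTR10C_dup332 measured 3.01, 2.22 and 3.01 CPM against 0.362, 0.543 and 0.533 CPM (log2 fold change 2.52 ± 0.293 SE, adjusted p = 1.42e-07).

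LTRs with no other member within 500 bp on their strand were also among them. RLTR10D_dup66 (chr3:88369595-88369986, minus strand) lies in an exon of Bglap3, an osteocalcin-related gene, on the same strand, and measured 5.85, 1.08 and 4.04 CPM against 0.254, 0.163 and 0.0444 CPM (log2 fold change 4.44 ± 0.505 SE, adjusted p = 9.39e-08). RLTR10C_dup1237 (chr12:21565122-21565614, plus strand, no gene within 10 kb) measured 2.27, 2.22 and 3.01 CPM against 0.942, 0.869 and 1.15 CPM (log2 fold change 1.31 ± 0.257 SE, adjusted p = 0.000912). RLTR10_dup916 (chr6:39324641-39325112, minus strand, 9660 bp from Slc37a3) measured 0.795, 0.671 and 0.712 CPM against 0.254, 0.272 and 0.0888 CPM (log2 fold change 1.80 ± 0.47 SE, adjusted p = 0.0235), and this call was lost in 8 of 11 alternatives, including without any 1 library. The other called cortical copies were RLTR10-int_dup1994 on chromosome 13 (log2 fold change 3.17), RLTR10-int_dup677 on chromosome 5 (3.33), MMERVK10C-int_dup3158 on chromosome 19 (3.98), and MMERVK10C-int_dup2123 (3.94) and MMERVK10C-int_dup2125 (4.52) of 1 insertion on chromosome 10, in log2 fold change, with every knockout above every control. Leaving out 1 control gave 6.97 for MMERVK10C-int_dup2125 (without ctrl-77), 5.02 for MMERVK10C-int_dup3158 (without ctrl-64), 4.05 for RLTR10-int_dup677 (without ctrl-65) and 5.10 for RLTR10D_dup66 (without ctrl-64), all still called, as was RLTR10D_dup66 at 3.85 without KO-60.

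**Figure D2:**
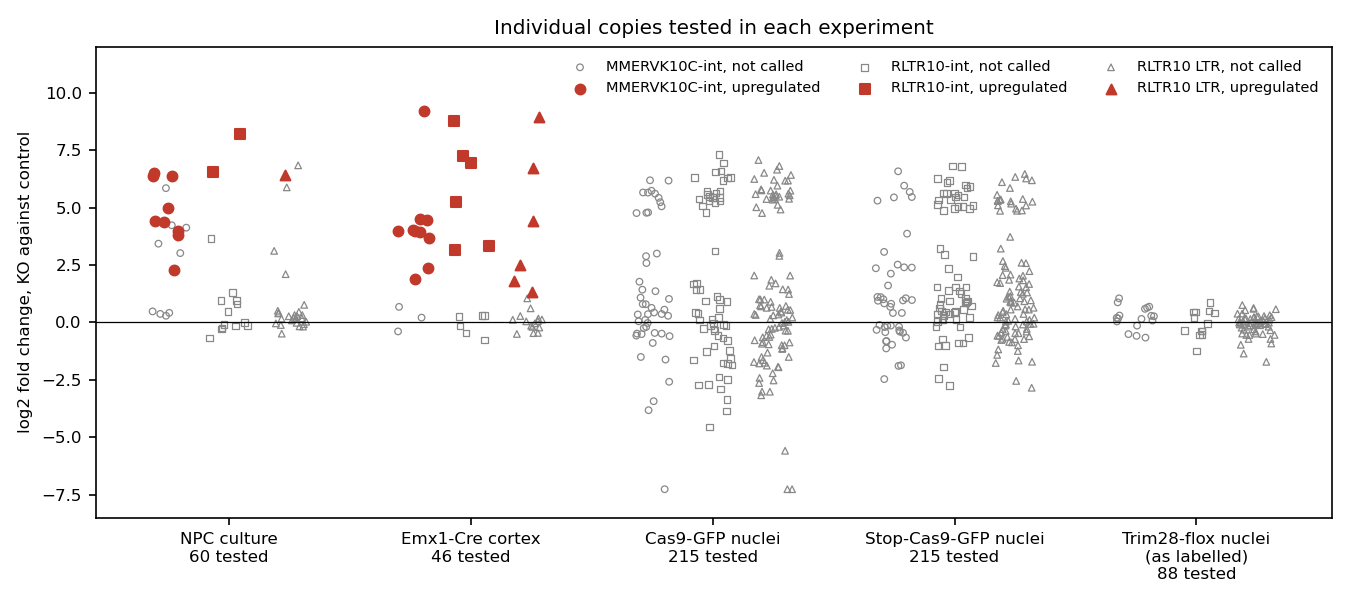
Log2 fold change of knockout against control (vertical axis) for each tested copy in the 5 experiments, with circles for MMERVK10C-int, squares for RLTR10-int and triangles for LTR copies, and upregulated copies filled in red. The 12 NPC and 22 cortical calls all lie above 0, and no copy is called in the 3 nuclei experiments, where points near 5 and above in the Cas9-GFP and Stop-Cas9-GFP columns are copies at 0 in the lone control.

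The copies called in NPCs and in the cortex overlapped in part. Of 29 copies called in either, 5 were called in both (MMERVK10C-int_dup2561, MMERVK10C-int_dup2562, MMERVK10C-int_dup781, MMERVK10C-int_dup782 and RLTR10-int_dup2468), which is 41.7% of the NPC calls and 22.7% of the cortical ones, in 3 shared loci. The 2 tests share no library. Only 18 members were tested in both experiments, since 6 of the 12 NPC copies passed the cortical filter and 8 of the 22 cortical copies the NPC filter, so most copies called in 1 experiment were not tested in the other. RLTR10-int_dup2468 measured 2.38, 1.76 and 1.42 CPM in the cortical knockouts against 0.0362, 0 and 0.0888 CPM (log2 fold change 5.23 ± 0.511 SE, adjusted p = 4.63e-09, and 6.06 without ctrl-77). On chromosome 13 the shared MMERVK10C-int_dup2561 measured 1.08, 1.29 and 0.633 CPM in the cortical knockouts against 0.145, 0 and 0 CPM (log2 fold change 4.02 ± 0.614 SE, adjusted p = 2.01e-05). All 4 control counts of MMERVK10C-int_dup2561 lay in ctrl-64, and the log2 fold change was 7.23 without that library and 3.48 without ctrl-77, called in both.

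**Figure D3:**
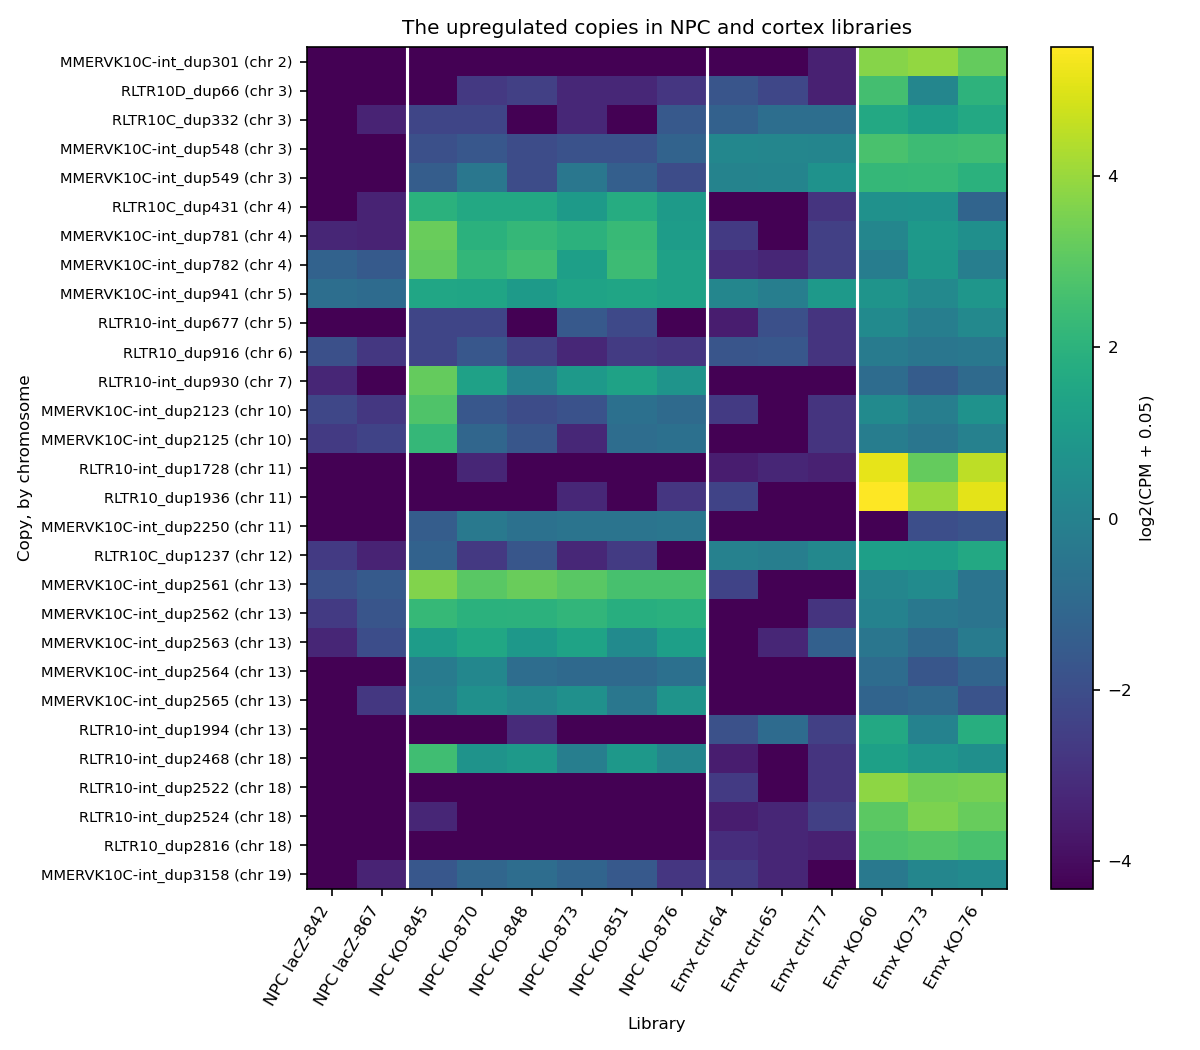
The 29 copies upregulated in NPCs or cortex (rows, by chromosome) in the 8 NPC and 6 cortical libraries (columns), coloured by log2(CPM + 0.05). The copies on chromosomes 2, 11 and 18 that reach the highest values in the cortical knockouts are at or near 0 in NPC knockouts, and the library KO-845 stands above the other NPC knockouts in several rows.

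The difference between knockout effects was tested in 1 fit over all 32 libraries, in which 524 members and 221492 TEs passed the filter. Between NPCs and cortex no member differed at an adjusted p below 0.05, with 15 at an unadjusted p below 0.05, and of all TEs 0.00181% were higher and 0.00226% lower. MMERVK10C-int_dup941, which rose in NPCs and had a log2 fold change of 0.21 (adjusted p = 0.961) in the cortex, gave the smallest p of the members, with a difference of 2.06 on the log2 scale (unadjusted p = 0.00291, adjusted p = 1). Where both groups of an experiment had no count, as for MMERVK10C-int_dup301 in NPCs, no difference of effects can be estimated. Between NPCs and the flox experiment 1 member, MMERVK10C-int_dup781, differed (6.37 ± 1.40 SE on the log2 scale, adjusted p = 0.044, with 0.0131% of all TEs higher and 0.000903% lower). With at least 10 counts as the only filter no member differed in this contrast. Between cortex and flox 3 members did (0.0293% of all TEs higher, 0.00316% lower), namely MMERVK10C-int_dup301 (10.9 ± 1.67 SE), RLTR10-int_dup1728 (9.86 ± 1.77 SE) and RLTR10-int_dup2524 (7.61 ± 1.59 SE). These flox contrasts use the labels, against which Trim28 went, and groups with few counts, so the sizes depend on the prior count of the fit. The compared experiments also differ in cell types and preparation.

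In sorted nuclei no member was called in any of the 3 experiments. Of 215 tested members in Cas9-GFP mice, 18 had an unadjusted p below 0.05 and none an adjusted p below 0.05 (edgeR, smallest 0.191), where 0.163% of all 105426 tested TEs rose and 0.00379% fell. Stop-Cas9-GFP mice gave 7 of 215 at an unadjusted p below 0.05 (0.0114% of all TEs rose, 0.000881% fell), and the flox experiment 4 of 88, all lower in the libraries labelled KO (0% of all TEs rose, 0.00641% fell). Every library labelled KO lay above every labelled control in 0 of 88 members (0.925% of all TEs) and below in 3 (0.763%). In Cas9-GFP mice every knockout lay above the control in 46 members (22% of all TEs) and below in 49 (18.6%), and in Stop-Cas9-GFP mice in 42 (12.9%) and 21 (13.9%). DESeq2 called no member in these 3 experiments either. With 1 control library the spread came from the knockouts alone. The lone control had no count on 65 of the 215 members in Cas9-GFP mice and 50 of 215 in Stop-Cas9-GFP mice, and over the others the median log2 fold change was -0.19 (150 members) and 0.44 (165 members). Among copies overlapping full-length elements 2 of 37 were called in Cas9-GFP mice.

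The copies named above were low or absent in the nuclei, with exceptions. Of the 29 copies, 5, 11 and 3 had no count in any library of the Cas9-GFP, Stop-Cas9-GFP and flox experiments, and 8, 6 and 4 passed the filters. MMERVK10C-int_dup2561 measured 0.548, 2.08, 0.911 and 2.83 CPM in the Cas9-GFP knockouts (guides to exon 13, exon 3, the mix and exon 4) against 1.47 CPM in the control (log2 fold change 0.11 ± 1.03 SE), and 0.522 to 1.15 CPM in the flox libraries labelled KO against 0.115 to 0.637 CPM (log2 fold change 1.05 ± 0.525 SE, adjusted p = 1). MMERVK10C-int_dup301, at 0 in every NPC library, measured 1.37 CPM (14 counts) in the Cas9-GFP control and 0, 0.173, 0 and 0.177 CPM in the knockouts. MMERVK10C-int_dup941 measured 6.93 to 18.7 CPM in the flox libraries labelled KO and 8.38 to 18.4 CPM in those labelled control (log2 fold change -0.13 ± 0.336 SE), above its NPC knockout level. RLTR10C_dup1237 measured 2.64 to 4.11 CPM in the flox libraries labelled KO against 4.04 to 6.77 CPM (log2 fold change -0.72 ± 0.279 SE, adjusted p = 1), which overlap between 4.04 and 4.11 CPM.

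Read along the insertions, the counts were uneven between the LTRs. Same-strand members within 500 bp of each other were joined into chains, a step chosen after the values had been seen. Of all chains 4760 were LTR only, 543 internal only and 1542 held LTR and internal pieces. The 29 called copies lay in 17 chains, 11 of which had an LTR on both sides of the internal part. In the NPC knockouts the LTR after the internal part, in the direction of the element, had more counts than the LTR before it in 7 of 8 chains with at least 30 internal counts, with 555 against 81 counts in all. The cortical knockouts showed this in 10 of 10 chains, with 1935 against 66 counts, and 1559 of the 1935 lay on RLTR10_dup1936. These chains were taken because they hold a called copy, and chains without one were not compared. RLTR10C_dup431, RLTR10C_dup332 and RLTR10_dup1936 are LTRs after the internal part that were themselves called.

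The chromosome 4 insertion had 1 count on its 5′ LTR, 1106 on its internal pieces and 287 on its 3′ LTR, the printed RLTR10C_dup431, in the 6 NPC knockouts. The chromosome 13 group near Gmnn had 3, 1626 and 114 counts. In the flox libraries this group had more counts on its 5′ than its 3′ LTR, 49 against 24 (labelled KO) and 50 against 9 (labelled control). The Cas9-GFP knockouts had 21 counts on each of these LTRs, and the Stop-Cas9-GFP knockouts 19 against 44. The chromosome 11 insertion had 36, 1083 and 1559 counts in the cortical knockouts, the last on the printed RLTR10_dup1936, and 0, 1 and 2 counts in the NPC knockouts. The exception in NPCs was RLTR10-int_dup930, whose chain had 39 counts before and 9 after the internal part. Only uniquely mapped reads were counted, reads over several rows were left out, and counts were not scaled to LTR length. In the chromosome 11 insertion the LTR pieces before the internal part span less than the 521 bp of RLTR10_dup1936. The part of any of these in the differences was not tested.

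**Figure D4:**
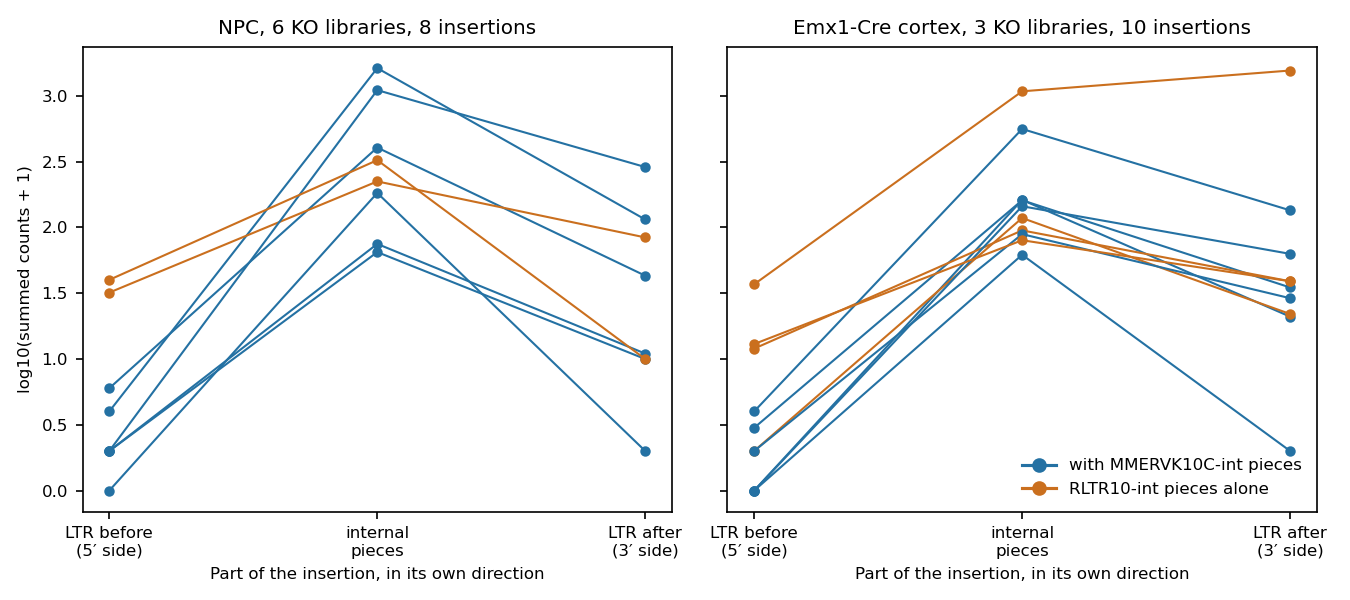
Counts summed over the knockout libraries on the LTR before, the internal pieces of and the LTR after each insertion that holds a called copy, an LTR on both sides and at least 30 internal counts, on a log10(counts + 1) axis, with 1 line per insertion, blue where it holds MMERVK10C-int pieces and orange where its internal pieces are RLTR10-int alone. The LTR after the internal part is the higher LTR in 7 of 8 insertions in NPCs and 10 of 10 in the cortex.

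Few of the genes near the called copies could be tested. In NPCs 11 of 12 called copies had a gene within 10 kb, 5 genes in all, of which 3 were tested and none rose (0.176% of 16469 genes rose). Gmnn measured 15.3 to 35.7 CPM in knockouts against 12.6 and 33.9 CPM in controls (log2 fold change 0.15 ± 0.431 SE). Gm13284, around the chromosome 4 insertion, measured 0.287 to 1.15 CPM against 0 and 0.0497 CPM (adjusted p = 0.198), without overlap. In the cortex 19 of 22 copies had such a gene, 11 genes in all, and 2 of the 5 tested rose (0.854% of 16399 genes). Gm40123 measured 2.37 to 4.03 CPM against 0.577 to 0.870 CPM (log2 fold change 2.15 ± 0.27 SE, adjusted p = 0.00108). Bglap3 measured 3.56 to 12.4 CPM against 1.19 to 1.74 CPM (log2 fold change 2.65 ± 0.397 SE, adjusted p = 0.00394), and its exon shares reads with RLTR10D_dup66. In both genes every knockout lay above every control.

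The subfamily rows, in which TEtranscripts also shares out reads with several matches and which include copies in full-length elements, gave the same internal sequence first. Values are scaled in the same way to the counts of all TE rows. MMERVK10C-int measured 6819 to 12007 in the NPC knockouts against 476 and 745 (log2 fold change 3.88 ± 0.279 SE, adjusted p = 2.97e-05), and 13324 to 13883 in the cortical knockouts against 1715 to 1947 (log2 fold change 2.90 ± 0.0606 SE, adjusted p = 1.82e-11). RLTR10C, its usual LTR, measured 660 to 1284 against 154 and 177 in NPCs (log2 fold change 2.51 ± 0.271 SE, adjusted p = 0.00065) and 1745 to 2039 against 481 to 549 in the cortex (log2 fold change 1.86 ± 0.0998 SE, adjusted p = 2.1e-07). These were the 2 of 11 tested family rows called in NPCs, where 0.999% of 801 subfamilies rose.

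RLTR10-int and RLTR10 differed between the experiments in this respect. RLTR10-int measured 593 to 941 in the NPC knockouts against 469 and 843, with overlap (log2 fold change 0.24 ± 0.232 SE, adjusted p = 0.885), and 6451, 4408 and 5656 in the cortical knockouts against 1067 to 1591 (log2 fold change 2.05 ± 0.153 SE, adjusted p = 2.75e-06). RLTR10 had a log2 fold change of 0.11 ± 0.332 SE in NPCs and 1.96 ± 0.191 SE in the cortex (adjusted p = 2.56e-05). The NPC libraries fall in 2 number series, each with 1 control. RLTR10-int measured 704.8, 669.7 and 592.8 against 468.8 in the series of lacZ-842 and 867.2, 871.5 and 940.7 against 842.8 in the series of lacZ-867, so that each knockout lay above the control of its series. How many other subfamilies show this order was not counted. With the series as a replicate block only MMERVK10C-int and RLTR10C of the family rows were called in NPCs, and RLTR10-int was not. RLTR10 measured 603, 740 and 643 against 562 in the series of lacZ-842, and 928, 1106 and 1369 against 1089 in the series of lacZ-867. In the cortex RLTR10B2 (log2 fold change 1.41), RLTR10D (1.21) and RLTR10E (1.15) also rose, giving 7 of 9 tested family rows against 3.95% of 734 subfamilies. The difference between experiments was not tested for subfamily rows. None was called in the nuclei, where 0% of subfamilies rose, with MMERVK10C-int at 2010 to 2259 against 1548 in Cas9-GFP mice (log2 fold change 0.44 ± 0.126 SE, adjusted p = 0.255), at 0.44 ± 0.15 SE in Stop-Cas9-GFP mice and at 0.00 ± 0.147 SE in the flox experiment. This depends on the scaling, as 1 family row was called in Cas9-GFP mice with library sizes from gene rows.

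**Figure D5:**
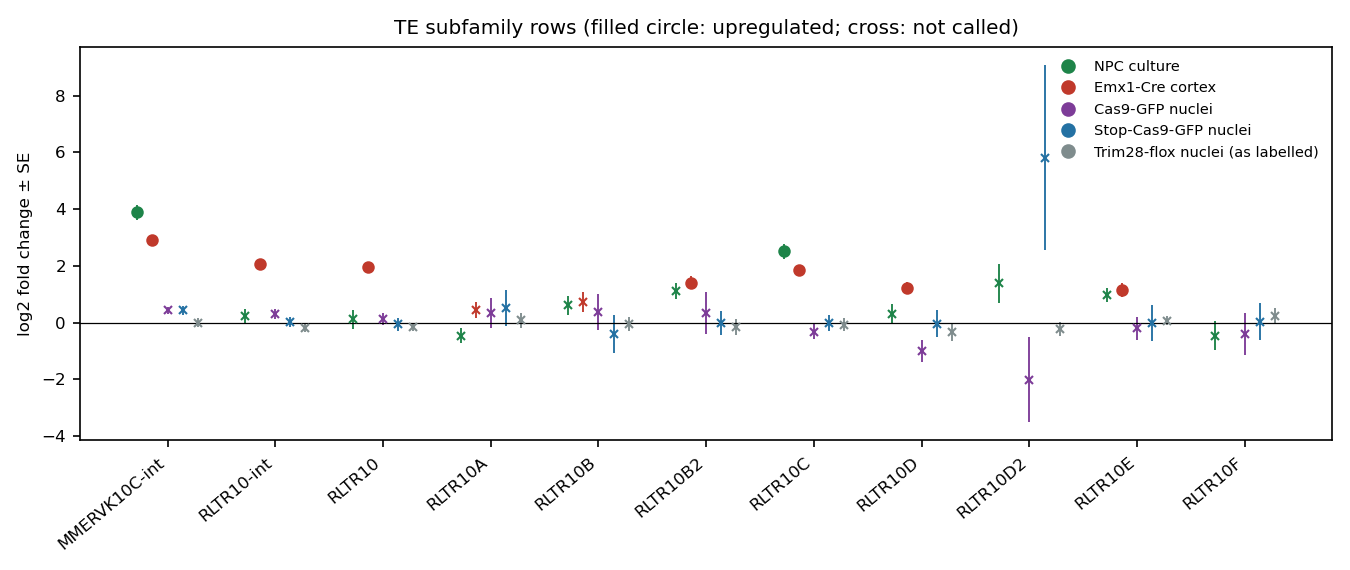
Log2 fold change ± SE of the MMERVK10C-int and RLTR10 subfamily rows in the 5 experiments, 1 colour each (filled circles upregulated, crosses not called). MMERVK10C-int and RLTR10C are called in NPCs and cortex, and RLTR10-int and RLTR10 in the cortex and not in NPCs.

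Of the 5 members with the highest mean over all 32 libraries, MMERVK10C-int_dup941 (6.58 CPM) rose in NPCs and RLTR10_dup1936 (4.03 CPM) in the cortex. RLTR10-int_dup1729, MMERVK10C-int_dup1018 and RLTR10E_dup11 were called in neither. RLTR10-int_dup1729 (chr11:4664747-4666723, minus strand), in an intron of Ascc2 and opposite to it, had the highest mean of 10.2 CPM, with 18.5 to 33.1 CPM in the Cas9-GFP knockouts against 28.9 CPM and 2.88 to 5.27 CPM in the NPC knockouts against 4.67 and 5.42 CPM (log2 fold change -0.29 ± 0.283 SE, adjusted p = 1). In the cortex RLTR10-int_dup1729 measured 0.227, 0.413 and 0.633 CPM in knockouts against 0.435, 0.217 and 0.666 CPM, so its mean pools preparations with unlike levels. MMERVK10C-int_dup1018, in an exon of 1500011B03Rik, and RLTR10E_dup11, which overlaps an exon of Tfb2m (a mitochondrial transcription factor gene) on the opposite strand, had log2 fold changes of 0.48 and -0.07 in NPCs and -0.39 and 0.13 in the cortex, none of them called. Per kilobase of copy and pooled over all libraries, RLTR10E_dup11 stood highest of the named copies, with a mean of 14.4 CPM per kb over the 32 libraries, followed by MMERVK10C-int_dup1018 with 9.66 and RLTR10_dup1936 with 7.73 CPM per kb. The last mean comes from the 3 cortical knockouts, as RLTR10_dup1936 measured at most 0.259 CPM in any other library.

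Called copies were longer and lay differently from the other tested copies, as a description. The NPC calls had a median length of 1000 bp against 475 bp for the 48 tested members not called, and the cortical calls 986 bp against 422 bp for 24. Of the 12 NPC calls 9, and of the 22 cortical calls 11, were joined to another MMERVK10C-int fragment, against 8 of 48 and 4 of 24. Exons held 1 of 12 and 1 of 22 called copies, against 17 of 48 and 9 of 24. All called intronic copies, 3 in NPCs and 5 in the cortex, lay opposite to the gene, where 11 of 20 and 4 of 4 intronic copies that were not called lay in its direction. The 3 NPC copies are pieces of the insertion in Gm13284. The cortical ones are 2 pieces of that same insertion and 3 pieces in Plac8l1. Pieces of 1 insertion are not independent, so the counts and lengths in this paragraph are not those of separate insertions.

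The study's qRT-PCR primers for MMERVK10C are shown because they can be matched to the members. Sequences are 5′ to 3′.
LTR Fwd: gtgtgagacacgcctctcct
LTR Rev: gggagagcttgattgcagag
POL Fwd: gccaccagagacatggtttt
POL Rev: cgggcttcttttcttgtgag
The LTR pair matched 533 members exactly with a product of 75 to 104 bp, 332 of them RLTR10C copies, and 2025 members with up to 2 mismatches per primer, against 15 and 146 of 309 full-length elements (the latter 47.2%). The POL pair, for the reverse transcriptase region, matched 2 members exactly with a product of 125 bp and 39 with up to 2 mismatches, against 24 and 141 full-length elements. The ENV pair matched 2 and 162 members, against 30 and 183 full-length elements. Of the copies that rose, MMERVK10C-int_dup782 holds an exact match to both POL primers, and RLTR10C_dup431, RLTR10C_dup332 and RLTR10C_dup1237 hold the LTR product with at most 2 mismatches per primer. In RLTR10C_dup431 the site of the forward LTR primer, with the mismatch in capitals, is the following.
RLTR10C_dup431 site: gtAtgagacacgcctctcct

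H3K9me3 was read from 1 CUT&RUN library in NPCs and 1 IgG library, as deposited scores of the difference between their coverages, whose direction and scale are not given in the sources used here, in 10 bp bins over the full-length elements and 2 kb on each side, so it covers only members next to full-length elements and has no replicate error. Upstream, bins over RLTR10 members (60 members at 57 elements) had a mean score of 1.25, and bins over no member 0.421. Downstream the means were 1.34 (42 members at 41 elements) and 0.488. Bins over internal members had means of 0.998 and 1.86 on these sides, and the bodies of the full-length elements 1.13. The medians over RLTR10 members were 1.09 on both sides, and those over no member were 0.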

How the data were processed

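Poly-A RNA-seq libraries of 5 experiments were used. The authors aligned reads with STAR 2.6.0 and counted uniquely mapped reads by strand with featureCounts (Subread 1.6.3), versions per the submitters' processing notes, over genes and over mm10 RepeatMasker copies of GRCm38.p6. Each mate was counted alone and reads over several rows were left out. The deposited gene and individual TE tables hold these raw counts. The deposited subfamily tables hold TEtranscripts estimated counts (expected counts), where a read that maps to several copies is split between them. The deposited CUT&RUN file holds scores over full-length elements. Table columns named flexcas were taken as the Stop-Cas9-GFP libraries, and 6 columns that match no sample were not used. Single-nuclei files hold no TE rows and were not used.

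CPM used gene count totals with TMM factors. Each experiment was fitted over all TEs that passed filterByExpr with edgeR 4.0.16's quasi-likelihood test in R 4.3.3, with Benjamini-Hochberg adjustment over all tested TEs and a call at adjusted p below 0.05 and an absolute log2 fold change above 0.5. Subfamily counts were normalized within the TE rows. SE is the log2 fold change divided by the square root of F. With 1 control library the spread came from the knockouts. Differences between experiments were contrasts in 1 fit of 32 libraries. Ratios with few control counts have exact counting intervals, and these and the floor of 3 counts cover counting error only. The procedure was tested on simulated data. Genes were matched to gencode vM21 by identifier, where 53229 genes had the same span as in the deposited table (100%), and 12643 members on main chromosomes were searched for motifs and primers. Named copies were, in each experiment, the 10 called members with the largest change in each direction and no overlap between groups, the 5 members with the highest mean CPM and the 5 with the smallest p in each contrast. The other called copies and RLTR10-int_dup962 were named after their values had been seen. The members and lists were chosen with earlier results of these data known. Depth was 8790346 to 25345083 gene counts per library. The labels do not say that all replicates are separate cultures, so p-values measure the spread between these samples. NPC library numbers form a series with lacZ-842 and a series with lacZ-867, and libraries of a series deviated together (r = 0.413 to 0.555 over 35091 TEs, 6 pairs), so a replicate block for the series was tried. Alternatives were other normalizations, DESeq2 1.42.0, no filter on low counts, other overlap and call rules, no exon overlap, and each library left out.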

Additional observations from a re-analysis of the deposited data

Results flagged for a closer look

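Of 47 groups of 4 to 10 samples checked, 7 held a sample far from the others, where chance gives about 1 in 20. The NPC knockout KO-845 was that sample in 5 of them. It measured 9.61 CPM on MMERVK10C-int_dup781 (the other knockouts 2.11 to 4.82), 5.61 CPM on RLTR10-int_dup2468 (0.862 to 1.95), 9.13 CPM on RLTR10-int_dup930 (0.977 to 2.47) and 0.32 CPM on MMERVK10C-int_dup2250 (0.586 to 0.745), and its summed member CPM was 212 (141 to 156). Without KO-845 the NPC comparison called 13 of 54 tested members. In the flox experiment the library labelled KO-823 measured 960 CPM (of TE rows) on the RLTR10C subfamily row (486 to 559 in the others), and the labelled control ctrl-822 a summed member CPM of 346 (254 to 265).

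Knockout effects differed between experiments for 4 members in the fit over 32 libraries (edgeR, adjusted p below 0.05). MMERVK10C-int_dup781 was higher by 6.37 on the log2 scale in NPCs than in the flox experiment. With at least 10 counts as the only filter 0 members differed in that contrast. In the cortex against the flox experiment the differences were 10.9 for MMERVK10C-int_dup301, 9.86 for RLTR10-int_dup1728 and 7.61 for RLTR10-int_dup2524. All 4 rest on flox groups with few counts and on labels that Trim28 went against.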

How the results depend on the processing

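Direction was checked for the copies called in NPCs or cortex and for the called subfamily rows of MMERVK10C-int, RLTR10C, RLTR10-int and RLTR10. It was also checked for the H3K9me3 differences, and none of these was reversed under an alternative. Direction was not checked for copies that were not called or for the nuclei experiments. NPC member calls fell to 4 of 87 tested without lacZ-842 and to 7 of 90 without lacZ-867, and ranged from 4 to 13 when each library was left out. Cortical calls ranged from 24 to 31 when each library was left out and came to 50 of 1627 without a filter on low counts. The same ranges were 2 to 2 for NPC subfamilies, 6 to 7 for cortical subfamilies and 0 to 0 for all counts in the nuclei and for members that fell. DESeq2 called 14 NPC and 21 cortical members. Members without exon overlap gave 11 of 42 and 21 of 36 calls, and counts from a table of ERVK copies alone, chosen after seeing the data, 17 of 64 and 23. With the number series as a replicate block 18 NPC members and 2 subfamilies were called, and 0 members in the flox experiment, and no call was lost under it. With library sizes from gene rows 1 of the MMERVK10C-int and RLTR10 subfamily rows was called in Cas9-GFP mice. With at least 10 counts as the only filter, 0 members differed between NPCs and flox. A gap of 500 bp placed 103 members next to full-length elements. The H3K9me3 differences between LTR bins and other bins were 1.09 by medians on both sides. The causes were not tested. The lone controls could not be left out. RLTR10_dup916 lost its call in 8 of 11 alternatives and MMERVK10C-int_dup2250 in 5 of 14. Each Cas9-GFP experiment has 1 control library, and 69.8% of members had no count, so most copies could not be compared.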
